A study of Mus musculus with 88 samples.

Results

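The change that wild-type (WT) E14 mouse embryonic stem cells made between 5 h and 24 h of directed differentiation toward mesoderm was measured in bulk RNA. The libraries were chosen by their labels as the WT libraries of the mesoderm series at 5 h and at 24 h, which gives 2 against 2, or 4 of the 24 libraries of that series and 4 of the 88 samples of the study. Of 53697 genes in the table, 18361 had enough reads to be tested, and 810 of them were called as changed. E14 cells are an embryonic stem cell line of 129/Ola mice, grown here in serum with leukemia inhibitory factor (LIF). They were given Activin A, BMP4, CHIR99021 (a GSK3 inhibitor that stabilizes beta-catenin), and FGF2 to give mid primitive streak (MPS). Both compared groups had this same medium and differed in time. Undifferentiated WT cells and WT cells at 48 h, which had been moved after 24 h to A-83-01 (an inhibitor of the Activin and Nodal receptors) with BMP4, were used for levels without a test. For comparison, the same times were available in cells labelled Mtf2 null and Jarid2 null, after accessory subunits of Polycomb repressive complex 2 (PRC2). They were also available in WT cells of the endoderm series, whose medium had no BMP4, another dose of Activin A, and less CHIR99021, beside FGF2. The mutants came from other stem cell lines than E14, although their labels give E14 as the strain, so the null allele and the line cannot be told apart. The authors describe the duplicates as technical, so that p-values measure only the spread between these libraries and not that between separate cultures.

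The primitive streak is the region of the gastrulating embryo in which epiblast cells become mesoderm or definitive endoderm. Wnt signaling acts there through beta-catenin and TCF/LEF factors, Nodal and Activin through SMAD2 and SMAD3, and BMPs through SMAD1 and SMAD5, and each pathway switches on inhibitors of itself. Brachyury, encoded by T, is the defining transcription factor of the streak and of early mesoderm.

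The 4 libraries held 10144909 to 13411552 estimated counts, and levels are given as CPM, counts relative to the library size corrected for composition by the TMM method. At these depths 1 CPM stood for 9.59 to 13.7 counts. The predicted gene Gm26917, whose reads overlap ribosomal RNA, took 15.4% to 17.0% of the counts and mitochondrial genes 0.836% to 1.08%. The 2 libraries of each time differed by more than sampling noise and were counted as 2. The labelled tissue was checked against short marker lists. The summed level of 4 naive stem cell markers (Esrrb, Zfp42, Tfcp2l1, and Klf4) was 1861 and 1864 CPM at 5 h and 1611 and 1583 CPM at 24 h. That of 5 streak markers was 9.84 and 10.6 CPM at 5 h and 70.1 and 74.2 CPM at 24 h, most of it from T. Of the other streak markers, Eomes stood at 12.7 and 12.0 CPM at 24 h, Evx1 at 1.18 and 1.60 CPM, Mixl1 at 0.542 and 0.729 CPM, and Mesp1 at 0 and 0.0729 CPM. Of 4 defining markers of later mesoderm, 3 were at or near 0, with Foxf1 at 0 in both 24 h libraries, Kdr at 0 and 0.0729 CPM, and Hand1 at 0.362 and 0.0729 CPM. The other, Pdgfra, stood at 2.98 and 5.12 CPM at 5 h and at 2.08 and 1.90 CPM at 24 h. The endoderm markers Cer1, Foxa2, and Sox17 were all below 1 CPM. The bulk RNA labelled mesoderm at 24 h thus held T and naive marker RNA, and little or none of 3 of the 4 later mesoderm markers. Whether the same cells held T and naive marker RNA cannot be told from bulk RNA. Other mesoderm genes were not part of this check. The cells are called by their label and time below.

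Of the 18361 tested genes, 810 (4.41%) were called at an adjusted p under 0.001 and a change of more than 2-fold (edgeR quasi-likelihood test with Benjamini-Hochberg adjustment), and rises outnumbered falls. There were 641 genes higher at 24 h (3.49%) and 169 lower (0.92%), while the median log2 fold change over all tested genes was 0.03. In all 810 genes the 2 libraries of one time lay wholly above the 2 of the other. The genes were called on these same libraries, so this follows largely from the limits and is no separate support. The median change was 1.48 on the log2 scale among the genes that rose and -1.46 among those that fell, and 161 rises and 43 falls were beyond 4-fold. Most called genes were protein coding, with 606 of the 641 that rose (94.5%) and 153 of the 169 that fell (90.5%). Without a limit on the fold change and at an adjusted p under 0.05, 4888 genes (26.6%) differed, 2776 higher (15.1%) and 2112 lower (11.5%). List counts of this comparison given below at an unadjusted p under 0.05 stand beside shares of all genes at least this large. The median log2 fold change also varied with level, from 0.21 in genes of 2 to 5 CPM to -0.15 in genes above 50 CPM. The lists below were not matched to all genes by level. Leaving out any 1 of the 4 libraries gave 410 to 502 called genes in place of 810, the fewest without the first 5 h library.

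Counting genes that reached 5 CPM at the higher time, the largest rise was that of T, which lies on chromosome 17 from 8434423 to 8442496, + strand (GRCm38). Its level was 0.903 and 1.67 CPM at 5 h and 55.6 and 59.8 CPM at 24 h, so both late libraries were far above both early ones (log2 fold change 5.50 ± 0.36, adjusted p = 4.99e-09). T was at 0.197 and 0.17 CPM in undifferentiated cells and at 0.0654 and 0 CPM at 48 h. In bulk RNA it cannot be told whether more cells held T RNA or each cell held more. The next largest rises belonged to genes with no common role. Cacng5, an auxiliary subunit of neuronal ion channels, went from 0.632 and 0.731 CPM at 5 h to 7.77 and 5.84 CPM at 24 h. Fras1, a basement membrane protein of the embryonic epidermis, went from 0.542 and 1.15 CPM at 5 h to 7.50 and 8.83 CPM at 24 h. Svop, a synaptic vesicle protein, and Trpm1, a cation channel of melanocytes and retina, had log2 fold changes of 3.28 ± 0.26 and 3.14 ± 0.30 (SE). Trpm1 stood at only 0.85 and 1.14 CPM at 48 h after 44.9 and 39.4 CPM at 24 h. The dynein heavy chain gene Dnah8 was the most abundant of the group, with 35.8 and 37.7 CPM at 5 h and 265 and 324 CPM at 24 h (log2 fold change 3.00 ± 0.13, adjusted p = 9.83e-12). Dnah8 had 87.9 and 88.2 CPM in undifferentiated cells, above its level at 5 h and below that at 24 h. Wls, which carries Wnt ligands to the cell surface, had 2.08 and 1.88 CPM at 5 h and 17.5 and 14.0 CPM at 24 h (log2 fold change 2.98 ± 0.21, adjusted p = 7.66e-09) and reached 38.2 and 46.4 CPM at 48 h. The remaining members of the 10 largest rises were Ksr2, a scaffold of the RAF and MEK kinases, Treml2, a receptor of the TREM family, and Hapln4, a link protein of hyaluronan matrix, with log2 fold changes of 3.10, 3.06, and 2.95. With 1 library left out, Cacng5 lost its call without either 5 h library (adjusted p = 0.00277 and 0.00152), and the other 9 kept theirs.

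**Figure D1:**
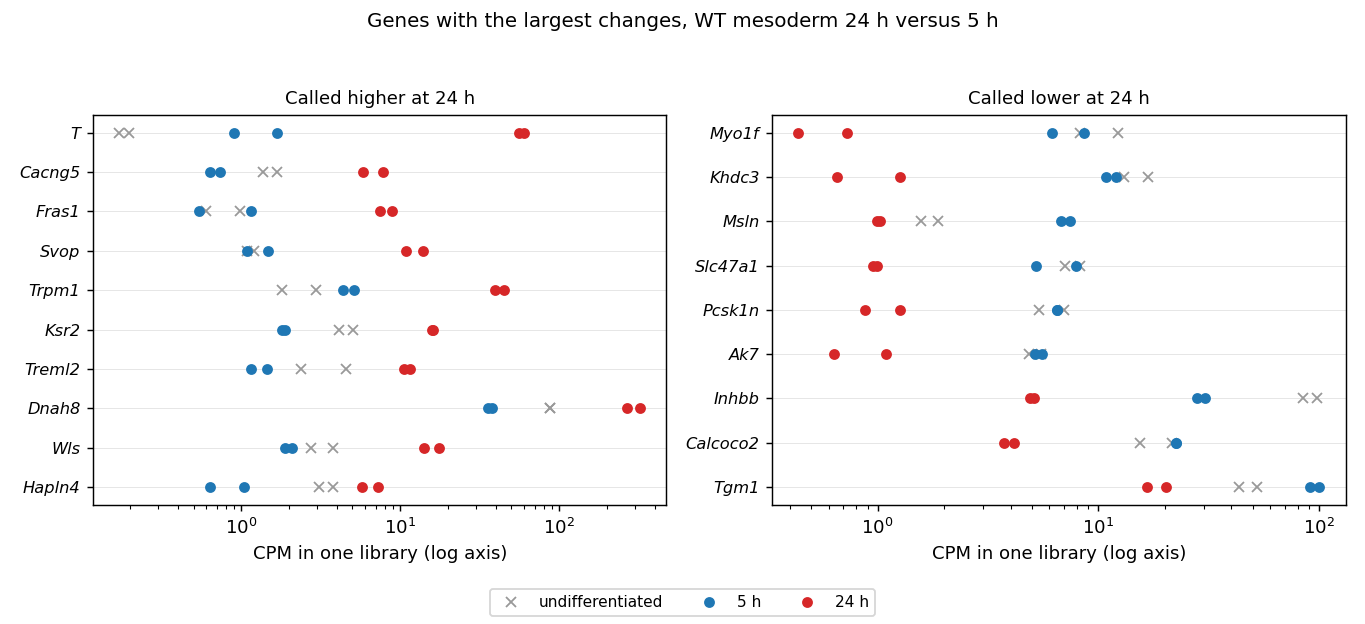
CPM on a log axis for the genes named for the largest called rises (left) and falls (right), with 1 point per WT mesoderm library at 5 h (blue) and 24 h (red) and a cross per undifferentiated library. The red and blue points do not overlap in any gene, because this was a condition for naming it. T moves from about 1 CPM to 55.6 and 59.8 CPM.

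Wnt targets and feedback genes gave 5 of 15 tested genes called higher and 0 lower, against 3.49% and 0.92% of all tested genes, with a list median of 0.79 against 0.03 over all genes. The 5 were T, Lef1, Sp5, Nkd1, and Cdx1. Sp5, a zinc finger factor that answers beta-catenin directly, lies on chromosome 2 from 70474923 to 70477729, + strand, and had 5.33 and 5.01 CPM at 5 h and 20.9 and 21.8 CPM at 24 h (log2 fold change 2.04 ± 0.22, adjusted p = 2.76e-06). Lef1, the TCF/LEF family member that pairs with beta-catenin, had 2.44 and 2.19 CPM at 5 h and 11.2 and 12.3 CPM at 24 h (log2 fold change 2.34 ± 0.31, adjusted p = 1.43e-05). Both genes were already above their undifferentiated levels at 5 h and rose from there by 24 h. Cdx1, a caudal homeobox gene of the streak, had 5.51 and 9.19 CPM at 5 h and 20.3 and 17.4 CPM at 24 h. Nkd1, an inhibitor of Dishevelled, had 1.81 and 2.51 CPM at 5 h and 8.23 and 6.71 CPM at 24 h. Sp5 and Cdx1 were at 0 in both 48 h libraries, in the medium without CHIR99021. With 1 library left out the list gave 3 to 4 calls, 3 without the first 24 h or the first 5 h library. Nkd1 was lost without any 1 of the 4 (adjusted p up to 0.0105) and Cdx1 without the first 24 h or the first 5 h library (adjusted p = 0.00239 and 0.00485). Axin2, a scaffold of the beta-catenin destruction complex and the standard readout of the pathway, was at 12.5 and 9.37 CPM in undifferentiated cells, 82.2 and 88.6 CPM at 5 h, and 139 and 146 CPM at 24 h. Its change after 5 h passed the p limit but not the 2-fold limit (log2 fold change 0.74 ± 0.10, adjusted p = 2.89e-05), as did that of Tcf7 (log2 fold change 0.79 ± 0.13, adjusted p = 1.66e-04). Dkk1, a secreted Wnt inhibitor, stood at 0.723 and 1.25 CPM at 5 h and at 0.362 and 0.146 CPM at 24 h, with a log2 fold change of -1.95 ± 0.60 that was not called (adjusted p = 0.0205). Among 17 tested ligands and receptors, only Wnt5b, a ligand that acts mainly without beta-catenin, was called, with 1.08 and 1.36 CPM at 5 h and 4.34 and 4.30 CPM at 24 h, and the list median was 0.20. That call was lost with DESeq2 and without any 1 of the 4 libraries (adjusted p up to 0.00917).

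The promoters of T and Sp5 are shown because T had the largest rise of the list and Sp5 is known as a direct target of beta-catenin. The 250 bases upstream of each annotated start, from RefSeq on GRCm38.p6, were searched on both strands for CTTTGA and CTTTGT, the core that TCF/LEF factors bind. Each match is in capitals, as TCAAAG or ACAAAG where it is on the opposite strand. The windows are chr17:8434173-8434422 (+ strand) for T and chr2:70474673-70474922 (+ strand) for Sp5.
T: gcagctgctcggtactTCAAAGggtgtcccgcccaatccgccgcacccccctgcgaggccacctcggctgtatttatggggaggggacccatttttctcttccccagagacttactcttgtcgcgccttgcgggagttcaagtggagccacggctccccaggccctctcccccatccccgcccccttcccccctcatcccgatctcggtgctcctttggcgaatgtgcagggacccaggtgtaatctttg
Sp5: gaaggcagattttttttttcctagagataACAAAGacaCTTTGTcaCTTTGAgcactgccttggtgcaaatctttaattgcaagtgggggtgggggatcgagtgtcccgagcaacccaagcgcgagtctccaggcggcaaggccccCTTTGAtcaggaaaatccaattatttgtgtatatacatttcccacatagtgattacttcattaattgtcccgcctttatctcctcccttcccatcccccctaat
The T window held 1 match and the Sp5 window 4, at separate places. Of 10 list members with a RefSeq window, 5 held a match (T, Sp5, Lef1, Dkk1, and Tnfrsf19), and Axin2 held none. A match of 6 letters is common, and 27.6% of all 32851 windows of this length held at least 1. By gene, the share was 25.2% among tested genes, 27.1% among those that rose, and 30.3% among those that fell. A match describes letters in the window and does not show binding.

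**Figure D2:**
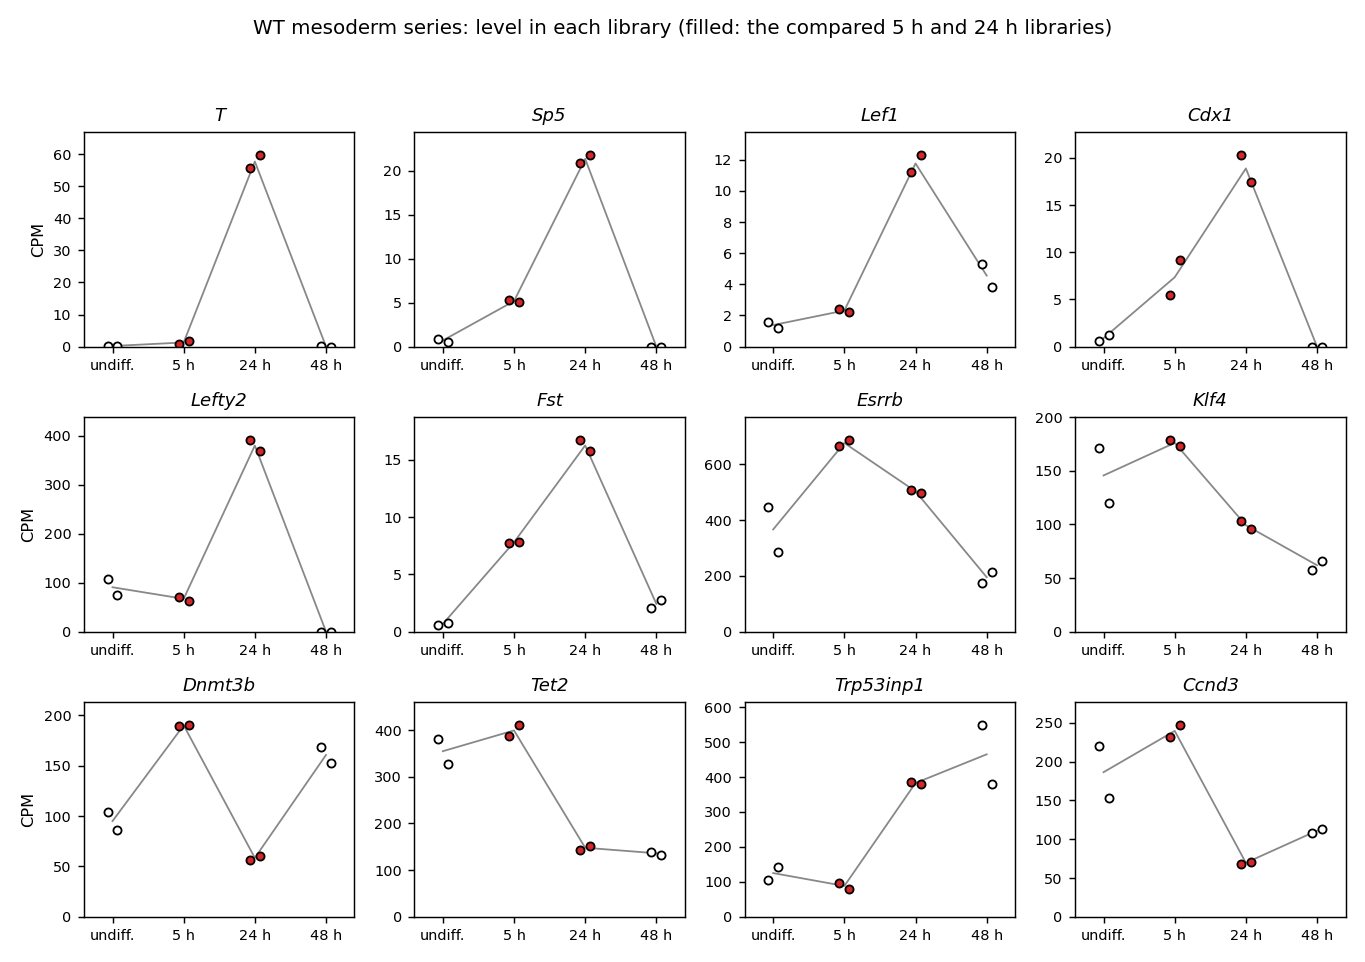
CPM in each of the 2 WT mesoderm libraries at each time for 12 genes, with the compared 5 h and 24 h libraries filled in red, the other times open, and a grey line through the means, each axis starting at 0. T, Sp5, Cdx1, and Lefty2 peak at 24 h and are near 0 at 48 h. Esrrb is highest at 5 h, at 665 and 687 CPM, and is at 507 and 499 CPM at 24 h. Dnmt3b dips at 24 h to 56.7 and 60.3 CPM.

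In the Nodal pathway, 1 of 17 tested genes was called higher and 0 lower, with a list median of 0.12. Each count of this paragraph stands beside 3.49% called higher and 0.92% called lower over all tested genes. The gene was Lefty2, a secreted inhibitor of Nodal that Nodal itself induces, with 70.7 and 63.5 CPM at 5 h and 391 and 368 CPM at 24 h (log2 fold change 2.50 ± 0.23, adjusted p = 1.94e-07). It had 0.0654 and 0.326 CPM at 48 h, in the medium with A-83-01. Its neighbor Lefty1 had 39.8 and 38.0 CPM at 5 h and 72.6 and 71.6 CPM at 24 h (log2 fold change 0.89 ± 0.27, adjusted p = 0.021) and was not called. Nodal itself stood at 70.2 and 68.3 CPM at 5 h and 65.8 and 66.3 CPM at 24 h. Among BMP targets, 1 of 10 tested genes was called, Id4, an inhibitor of basic helix-loop-helix factors, with 3.61 and 3.76 CPM at 5 h and 9.94 and 9.63 CPM at 24 h. The standard target Id1 stood at 41.6 and 45.5 CPM at 5 h, 42.8 and 41.5 CPM at 24 h, and 368 and 354 CPM at 48 h. Id3 stood at 22.2 and 19.3, 24.1 and 20.0, and 123 and 135 CPM at the same times. Of 11 tested BMP ligands, receptors, and inhibitors, 2 were called higher, the ligand Bmp7 (log2 fold change 1.94 ± 0.27) and the Activin antagonist Fst (7.77 and 7.83 CPM at 5 h and 16.7 and 15.8 CPM at 24 h). In the FGF and ERK pathway, 1 of 17 tested genes rose and 1 fell. The gene that rose was Dusp4, a phosphatase of ERK, with 7.95 and 9.30 CPM at 5 h and 23.1 and 19.5 CPM at 24 h. The one that fell was the receptor Fgfr2, with 4.34 and 3.24 CPM at 5 h and 0.723 and 0.438 CPM at 24 h (log2 fold change -2.72 ± 0.29, adjusted p = 1.54e-06). Of 18 immediate early genes, 1 was called, Btg2, an antiproliferative gene that p53 also activates, with 13.1 and 15.3 CPM at 5 h and 55.1 and 57.1 CPM at 24 h. With 1 library left out, Fst lost its call in each of 4 fits (adjusted p up to 0.0119), Dusp4 without the first 24 h or first 5 h library (0.00175 and 0.00393), and Bmp7 without the first 5 h library (0.00155).

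Among primitive streak regulators, 8 of 16 were tested and 2 were called higher, T and Cdx1, against 3.49% of all tested genes. The list median was 0.72. Eomes, a T-box factor needed for streak formation, had 7.41 and 7.21 CPM at 5 h and 12.7 and 12.0 CPM at 24 h, with a log2 fold change of 0.76 ± 0.22 (adjusted p = 0.0149) that was not called. The other 8 (Mesp1, Tbx6, Msgn1, Gsc, Lhx1, Fgf8, Wnt3a, and Cdx4) had at most 15 counts in any of the 4 libraries and were not tested. Of lateral and cardiac mesoderm genes, 9 of 17 were tested and 0 were called (2 higher and 4 lower at an unadjusted p under 0.05, 0 by DESeq2). Definitive endoderm gave 0 of 8 tested genes (2 higher and 0 lower at an unadjusted p under 0.05, 0 by DESeq2). Neural ectoderm gave 0 of 7 (4 higher and 2 lower at an unadjusted p under 0.05, 1 lower by DESeq2), trophoblast 0 of 8 (1 and 2, with 1 lower by DESeq2), and the 2-cell-like list 0 of 2 (0 and 0, with 0 by DESeq2). In extraembryonic endoderm 2 of 7 tested genes fell, against 0.92% of all tested genes. They were the endocytic adaptor Dab2 and the endocytic receptor Cubn, and the list median was -0.92. Cubn had 7.95 and 4.81 CPM at 5 h and 2.17 and 2.33 CPM at 24 h (log2 fold change -1.51 ± 0.28). Among 10 tested Hox genes of 39, Hoxb9 and Hoxc13 were called higher, against 3.49% of all tested genes, and the list median was 2.07. That median rests mostly on genes near the floor. The 10 genes summed to 6.32 and 6.79 CPM at 5 h and 19.2 and 18.5 CPM at 24 h. Hoxb9 had 0.452 and 0.104 CPM at 5 h and 3.25 and 2.33 CPM at 24 h and Hoxc13 1.99 and 2.51 CPM at 5 h and 9.67 and 9.34 CPM at 24 h. Of 9 germline genes, Tex15 rose (7.59 and 6.79 CPM at 5 h and 32.9 and 28.3 CPM at 24 h) and Mael fell (15.7 and 13.3 CPM at 5 h and 6.87 and 4.16 CPM at 24 h). Over all tested genes 3.49% were called higher and 0.92% lower. With 1 library left out, Dab2 was lost in each of 4 fits (adjusted p up to 0.0109), Cubn in all but the fit without the second 5 h library (up to 0.0321), Hoxb9 without the first 24 h or second 5 h library (up to 0.00514), Hoxc13 without the first 5 h library (0.00138), Tex15 without the second 5 h library (0.0011), and Mael without the second 24 h or first 5 h library (up to 0.0101).

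No naive pluripotency gene was called among 16 tested (1 higher and 6 lower at an unadjusted p under 0.05 by edgeR, 0 by DESeq2), and the list median was -0.35. At an adjusted p under 0.05 with no fold limit, 0 were higher and 5 lower, against 15.1% and 11.5% of all tested genes. Esrrb, an orphan nuclear receptor of the naive state, had 665 and 687 CPM at 5 h and 507 and 499 CPM at 24 h (log2 fold change -0.43 ± 0.16). Tfcp2l1, another naive factor, had 574 and 575 CPM at 5 h and 658 and 665 CPM at 24 h (log2 fold change 0.20 ± 0.16). Nanog stood at 412 and 441 CPM in undifferentiated cells, 267 and 254 CPM at 5 h, and 233 and 213 CPM at 24 h. Klf4 was lower at 24 h at less than 2-fold, with 179 and 173 CPM at 5 h and 103 and 95.4 CPM at 24 h (log2 fold change -0.83 ± 0.15, adjusted p = 4.36e-04). In the core list shared by naive and primed cells, 1 of 10 genes was called lower, against 0.92% of all tested genes. This was Utf1, a chromatin factor of undifferentiated cells, with 208 and 232 CPM at 5 h and 100.4 and 88.0 CPM at 24 h (log2 fold change -1.22 ± 0.18, adjusted p = 5.70e-05). Without the second 24 h or the second 5 h library Utf1 was not called (adjusted p = 0.00319 and 0.00151). Pou5f1 had a log2 fold change of -0.52 ± 0.16 and Sox2 one of 0.47 ± 0.13, and neither was called. The LIF and STAT3 target list gave 0 of 11 genes (2 higher and 5 lower at an unadjusted p under 0.05, 1 lower by DESeq2), with a median of -0.11. Formative epiblast genes, which mark the state after implantation, did not rise as called genes. Of 17, 2 fell, Dnmt3b and Dnmt3l, against 0.92% of all tested genes. Otx2, a regulator of that state, had 2.35 and 2.72 CPM at 5 h and 5.88 and 5.40 CPM at 24 h, with a log2 fold change of 1.15 ± 0.30 that was not called (adjusted p = 0.00643). It stood at 63.3 and 43.4 CPM at 48 h.

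Among genes of DNA methylation, 3 of 9 tested genes were called lower against 0.92% of all genes and 0 higher, with a list median of -0.60. The de novo methyltransferase Dnmt3b had 189.8 and 190.3 CPM at 5 h and 56.7 and 60.3 CPM at 24 h (log2 fold change -1.70 ± 0.11, adjusted p = 5.56e-09), and at 48 h it stood at 169 and 153 CPM. Its cofactor Dnmt3l had 195 and 193 CPM at 5 h and 81.8 and 83.1 CPM at 24 h (log2 fold change -1.23 ± 0.14, adjusted p = 1.93e-06). The methylcytosine dioxygenase Tet2 had 388 and 411 CPM at 5 h and 143 and 153 CPM at 24 h (log2 fold change -1.43 ± 0.13, adjusted p = 2.05e-07). The falls thus included a writer, its cofactor, and an eraser. Tet1 and the maintenance factor Uhrf1 passed an adjusted p of 0.05 at less than 2-fold, with log2 fold changes of -0.61 ± 0.14 and -0.60 ± 0.13. None of the 13 PRC2 subunit genes was called (1 higher and 7 lower at an unadjusted p under 0.05 by edgeR, 1 lower by DESeq2). Jarid2, a subunit of PRC2.2, came nearest, with 639 and 661 CPM at 5 h and 318 and 337 CPM at 24 h (log2 fold change -0.99 ± 0.12, adjusted p = 5.42e-06). Mtf2 of PRC2.1, the core subunit Eed, and the catalytic subunit Ezh2 had log2 fold changes of -0.23 ± 0.15, -0.28 ± 0.12, and -0.49 ± 0.12.

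Among p53 targets, 6 of 15 tested genes were called higher against 3.49% of all genes and 0 lower, with 15 of 15 above 0 and a list median of 0.84. Trp53inp1, an autophagy and stress gene, had 95.7 and 81.1 CPM at 5 h and 387 and 379 CPM at 24 h (log2 fold change 2.11 ± 0.18, adjusted p = 6.53e-08). Plk2, a polo-like kinase, had 29.9 and 29.1 CPM at 5 h and 93.9 and 85.9 CPM at 24 h (log2 fold change 1.60 ± 0.11, adjusted p = 5.28e-09). The cell cycle inhibitor Cdkn1a had 48.0 and 46.8 CPM at 5 h and 115 and 103 CPM at 24 h (log2 fold change 1.20 ± 0.15, adjusted p = 1.18e-05), and its undifferentiated level was 17.8 and 15.8 CPM. Ccng1, Trp73, and the proapoptotic gene Pmaip1 were the others, with log2 fold changes of 1.35 ± 0.12, 1.34 ± 0.21, and 1.00 ± 0.13, the last at the edge of the 2-fold limit. Pmaip1 was under that limit with DESeq2, RLE scaling, no filter, or fewer libraries or genes in the fit (0.95 to 0.99), and without the first 24 h or second 5 h library (0.91 and 0.86). Trp73 lost its call without the second 24 h or first 5 h library (adjusted p = 0.00136 and 0.00436). Mdm2, the ubiquitin ligase that degrades p53, had 109 and 97.5 CPM at 5 h and 202 and 204 CPM at 24 h and lay just under that limit (log2 fold change 0.97 ± 0.12, adjusted p = 5.38e-06). Trp53inp1, Plk2, and Ccng1 were as high or higher at 48 h, while Cdkn1a and Pmaip1 were lower than at 24 h, at 47.3 and 53.2 CPM and 6.21 and 6.93 CPM.

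Of 26 cell cycle genes, 3 were called lower and 1 higher (Cdkn1a), against 0.92% and 3.49% of all tested genes. Without the 2-fold limit 18 were lower at an adjusted p under 0.05, against 11.5% of all tested genes, and the list median was -0.58. Ccnd3, a D-type cyclin, had 232 and 247 CPM at 5 h and 68.2 and 71.2 CPM at 24 h (log2 fold change -1.78 ± 0.15, adjusted p = 5.92e-08). The S phase cyclin Ccne1 had 156 and 158 CPM at 5 h and 64.5 and 64.4 CPM at 24 h (log2 fold change -1.28 ± 0.13, adjusted p = 9.93e-07). The third gene that fell, Cdkn1c, is an inhibitor of the cycle rather than a driver, and had 36.6 and 35.6 CPM at 5 h and 8.95 and 7.88 CPM at 24 h (log2 fold change -2.10 ± 0.21, adjusted p = 5.16e-07). In glycolysis, 1 of 24 genes was called lower, against 0.92% of all tested genes. This was lactate dehydrogenase Ldha (log2 fold change -1.27 ± 0.13, adjusted p = 6.30e-07). Ldha stood at 1128 and 1035 CPM in undifferentiated cells, 514 and 507 CPM at 5 h, and 217 and 206 CPM at 24 h. Pkm, the pyruvate kinase, had a log2 fold change of -0.50 ± 0.13 and was not called. Sterol synthesis gave 0 of 20 genes (8 higher and 0 lower at an unadjusted p under 0.05, 0 by DESeq2). The amino acid stress response gave 1 of 14 called higher, against 3.49% of all tested genes. This was the transcription factor Atf5, with 16.8 and 18.6 CPM at 5 h and 59.4 and 58.6 CPM at 24 h. Of epithelial and mesenchymal genes, 3 of 16 rose, against 3.49% of all tested genes. N-cadherin Cdh2 had 2.98 and 3.55 CPM at 5 h and 9.22 and 10.4 CPM at 24 h, and fibronectin Fn1, the most abundant, had 477 and 546 CPM at 5 h and 1064 and 1133 CPM at 24 h. The third was the claudin Cldn6 of epithelial tight junctions (log2 fold change 1.36 ± 0.20), while Cdh2 and Fn1 are known as mesenchymal. Basement membrane genes fell in 2 of 12, Sparc (157 and 156 CPM at 5 h and 57.1 and 58.0 CPM at 24 h) and collagen IV Col4a1 (69.6 and 85.1 CPM at 5 h and 41.1 and 35.2 CPM at 24 h), against 0.92% of all tested genes, with a list median of -0.52. With 1 library left out, the epithelial and mesenchymal list gave 0 to 2 calls, 0 without the first 5 h library and 1 without the first 24 h or second 5 h library. Atf5 and Cdh2 were lost in each of 4 such fits (adjusted p up to 0.00795 and 0.00969), Cldn6 in all but the fit without the second 24 h library (up to 0.00186), and Fn1 without the first 5 h library (0.00194). Col4a1 was lost in all but the fit without the first 5 h library (up to 0.00557), which left 1 call in the basement membrane list, as did library totals in place of TMM.

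**Figure D3:**
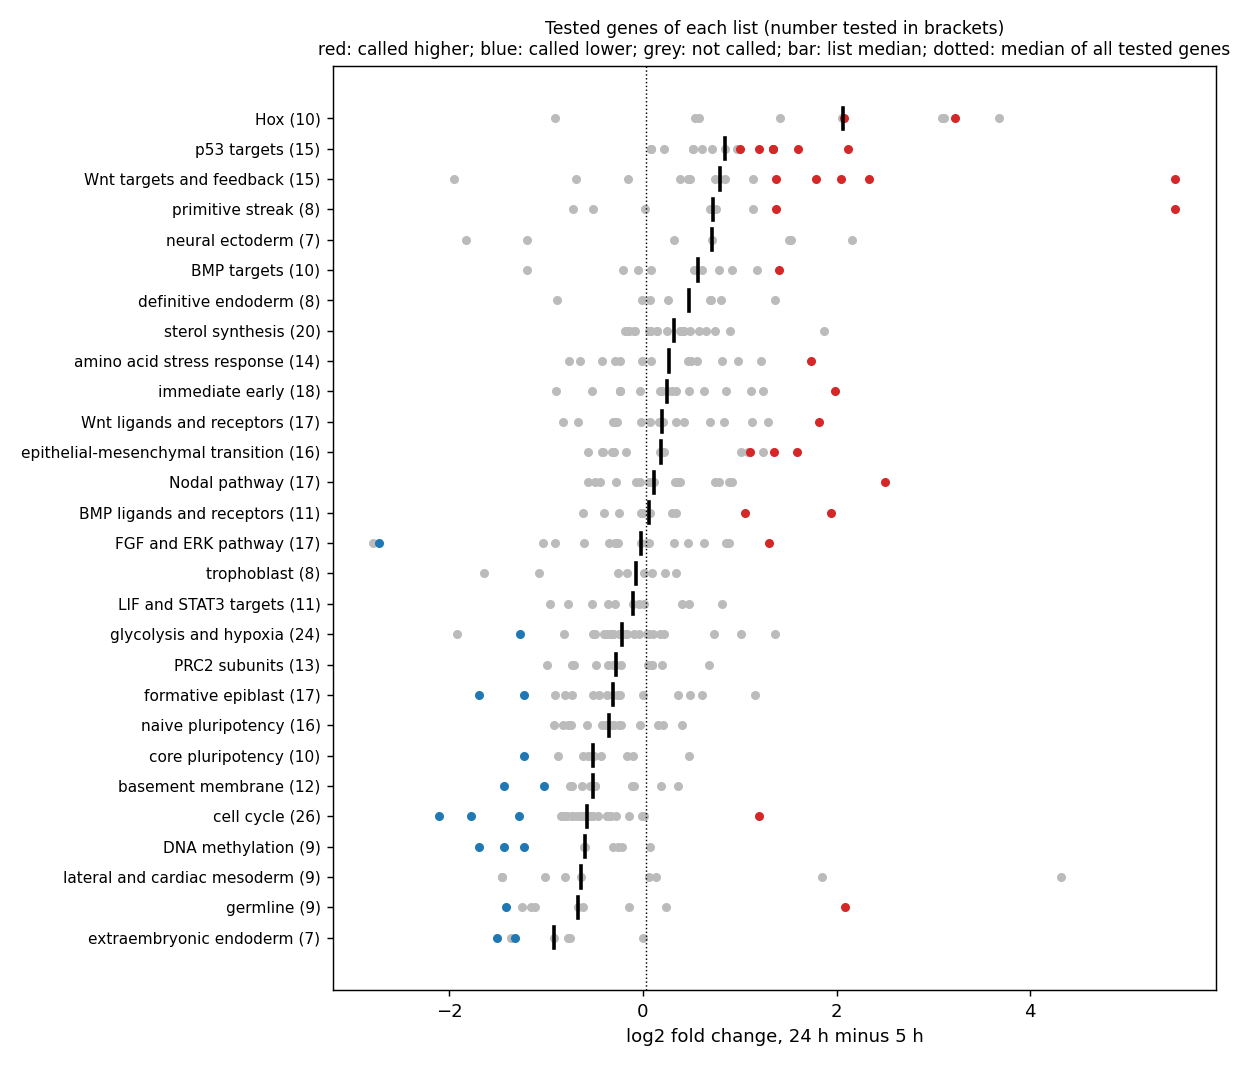
The log2 fold change (24 h minus 5 h) of every tested gene in the lists with 7 or more tested genes, red where called higher, blue where called lower, and grey where not called, with a bar at each list's median and a dotted line at the median of all tested genes (0.03). The medians of p53 targets (0.84) and Wnt targets (0.79) lie to the right of that line and those of cell cycle (-0.58) and DNA methylation (-0.60) to the left.

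The largest falls, by the same 5 CPM limit, again had no shared role. Khdc3, an oocyte and stem cell gene that protects genome stability, had 12.0 and 10.9 CPM at 5 h and 1.27 and 0.656 CPM at 24 h (log2 fold change -3.60 ± 0.37, adjusted p = 9.93e-07). Myo1f, a class I myosin of blood cells, had 6.14 and 8.57 CPM at 5 h and 0.723 and 0.438 CPM at 24 h (log2 fold change -3.66 ± 0.53, adjusted p = 3.80e-05). Inhbb, which encodes the beta B subunit of Activin B, stood at 98.0 and 84.3 CPM in undifferentiated cells, 28.1 and 30.5 CPM at 5 h, and 4.88 and 5.11 CPM at 24 h (log2 fold change -2.55 ± 0.24, adjusted p = 2.75e-07). Transglutaminase Tgm1 had 90.7 and 100.4 CPM at 5 h and 20.3 and 16.6 CPM at 24 h (log2 fold change -2.37 ± 0.16, adjusted p = 5.28e-09), after 52.1 and 43.2 CPM in undifferentiated cells. Calcoco2, an autophagy receptor, had 22.6 and 22.6 CPM at 5 h and 4.16 and 3.72 CPM at 24 h, and 74.6 and 45.3 CPM at 48 h. The organic cation transporter Slc47a1 had a log2 fold change of -2.76 ± 0.32. Other large falls were those of the surface protein Msln, the convertase inhibitor Pcsk1n, and the adenylate kinase Ak7, at -2.80, -2.61, and -2.59. Myo1f lost its call without the second 24 h library (adjusted p = 0.00281) and Ak7 without the first (0.00176).

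Levels in undifferentiated cells and at 48 h place the change in the time course, without a test and with the 5 h and 24 h libraries shared. Choosing genes by their 5 h and 24 h levels itself shifts the counts below. They were not made over all tested genes and describe the called genes only. Of the 641 genes that rose, 367 were at 24 h more than 2 times above their mean in undifferentiated cells, 272 were within 2 times of it, and 2 were more than 2 times below it. At 5 h, 140 of the 641 had been more than 2 times below the undifferentiated mean and 30 more than 2 times above it. By 48 h, 508 were within 2 times of their 24 h mean, 108 were more than 2 times below it, and 25 more than 2 times above it. Of the 169 genes that fell, 102 were at 24 h more than 2 times below their undifferentiated mean and 67 within 2 times of it. At 48 h, 56 of them were more than 2 times above their 24 h mean, as Calcoco2 and Dnmt3b were.

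The change also went with the annotated span of the gene, from the first to the last base of the locus, introns included. The median log2 fold change was -0.04 in 4523 genes of up to 5 kb, 0.02 in 4204 genes of 20 to 50 kb, and 0.44 in 739 genes of more than 200 kb. The percent of genes called higher ran from 0.862 in the shortest class to 12.7 in the longest, while the percent called lower was 0.73 and 1.22 in those classes. Among genes with a mean of at least 10 CPM over the compared libraries, the median ran from -0.21 to 0.32. Of the 10 largest rises, Fras1, Ksr2, and Dnah8 span 410774, 361004, and 253012 bases. T, Hapln4, and Treml2 span only 8074, 7406, and 13036 bases, and the others of the 10 lie between. In the other cells at these times the longest class also had the highest median, at 0.26 in WT cells of the endoderm series, 0.55 in Mtf2 null cells, and 0.58 in cells labelled Jarid2 null. The lowest median was in the shortest class in Mtf2 null cells (-0.02), but in the 5 to 10 kb class in WT endoderm (-0.08) and in cells labelled Jarid2 null (-0.13). Between undifferentiated cells and 5 h the median went from -0.37 in the shortest class through -0.09, -0.01, 0.05, and 0.07 to 0.09 in the 100 to 200 kb class, and was -0.13 in the longest.

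**Figure D4:**
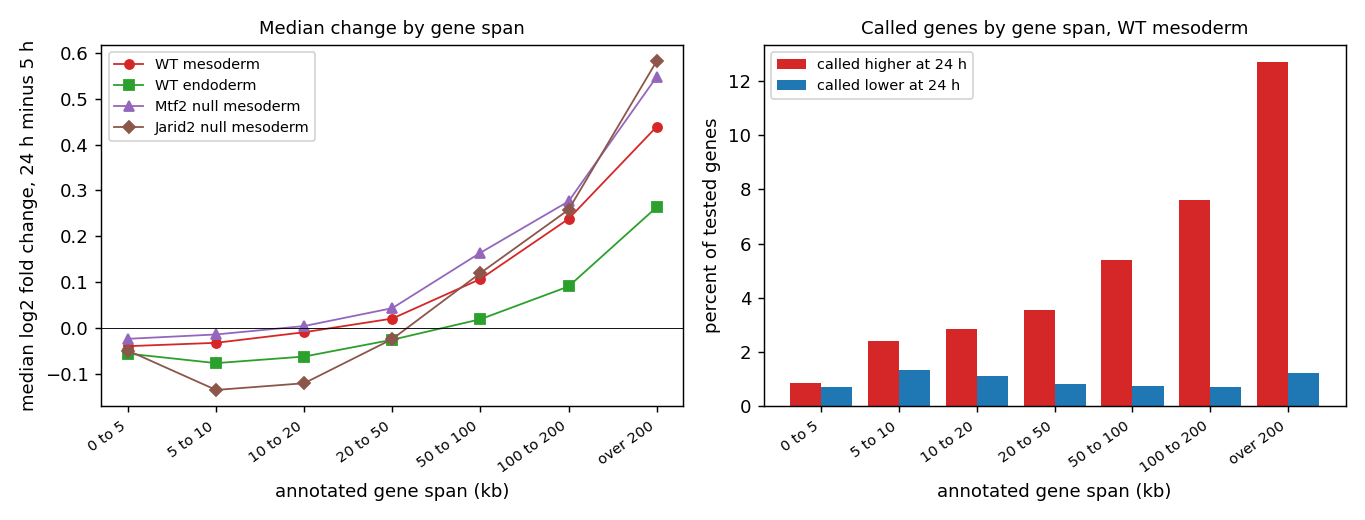
Left, the median log2 fold change (24 h minus 5 h) of tested genes by annotated gene span for WT mesoderm and for WT endoderm, Mtf2 null cells, and cells labelled Jarid2 null, and right, the percent of tested genes called in each direction in WT mesoderm. In WT mesoderm the median goes from -0.04 in genes of up to 5 kb to 0.44 in genes of over 200 kb.

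The same times were measured in the endoderm series, whose WT libraries are separate. Its medium lacked BMP4 and held another dose of Activin A and less CHIR99021, so these 3 differences cannot be told apart. Medium and experimental run cannot be told apart between the series. In a joint fit of both series, 529 of 19601 genes (2.7%) were called between WT endoderm at 24 h and 5 h, 349 higher (1.78%) and 180 lower (0.918%). These were set against the 810 calls of the fit of the mesoderm series alone. In both, 388 genes were called in the same direction, or 47.9% of the mesoderm calls and 73.3% of the endoderm calls. There were 0 called in opposite directions. Of the 809 mesoderm calls also in the joint fit, 805 had the same sign in WT endoderm, a count not made over all genes. The direct test of the difference between the changes called 14 of 19601 genes (0.0714%) at an adjusted p under 0.05 and a log2 difference of more than 1. The value was larger in mesoderm in 12 (0.0612%) and smaller in 2 (0.0102%), and with DESeq2 the split was 4 to 4 and with RLE scaling 4 to 3. Leaving out any 1 of the 8 libraries left 3 to 9 calls. The nuclear phosphatase subunit Ppp1r10 differed most, at 42.1 and 40.8 CPM at 5 h and 88.9 and 92.1 CPM at 24 h in mesoderm against 102 and 104 CPM and 81.0 and 84.5 CPM in endoderm (log2 difference 1.44 ± 0.17, adjusted p = 2.59e-05). It rose in the first series and was lower at 24 h in both libraries of the second. Nckap1l, a subunit of the WAVE complex of blood cells, Gprin2, the homeobox gene Cux2, and Phldb2 rose more in mesoderm, with log2 differences of 1.42, 1.37, 1.34, and 1.25. The ectonucleotidase Enpp3 and the RNA-binding protein Rbm14 went the other way, at -1.19 and -1.10. Ppp1r10 and Cux2 kept their call whichever library was left out. Enpp3, Gprin2, and Phldb2 lost theirs in 7 or 8 of the 8 fits (adjusted p up to 0.321), Nckap1l without the first 5 h mesoderm or first 24 h endoderm library (0.0859 and 0.0761), and Rbm14 without the first 24 h mesoderm library, by the 2-fold limit. No gene of the 29 lists was called in this test, and DESeq2 called 0 of them. At an unadjusted p under 0.05 there were 29 listed genes, against 1442 of all 19601. Of the listed genes 361 were tested in the mesoderm fit, and their number in the joint fit is not given. With 2 libraries a group, a smaller difference could be missed. T, at 56.2 and 60.7 CPM in mesoderm and 26.5 and 21.9 CPM in endoderm at 24 h, had a log2 difference of 1.14 ± 0.56 that did not pass (adjusted p = 0.689).

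The change was next compared between WT and Mtf2 null cells, where the targeted gene stood at 38.2 and 37.4 CPM at 5 h and 34.4 and 34.0 CPM at 24 h against 313 and 259.8 and 254 and 235 CPM in WT. This test shares the WT libraries with the comparison above. It called 153 of 18361 genes (0.833%), 87 with a larger value in Mtf2 null cells (0.474%) and 66 with a smaller one (0.359%), and leaving out any 1 of the 8 libraries left 53 to 90 calls. With library totals in place of TMM the split was 139 to 51. Of the 641 genes that rose in WT, 6 were called with a larger value and 23 with a smaller one, and of the 169 that fell, 14 with a larger and 2 with a smaller value, while 108 calls lay outside the WT calls. The WT change by which these genes were chosen is also subtracted in this test. Selection alone therefore favors such splits, and they are not read as a weaker response. The Wnt targets Lef1 and Sp5 rose less in the mutant. Lef1 was already at 15.7 and 15.1 CPM at 5 h and reached 19.4 and 19.7 CPM at 24 h, so that it lay above WT at both times (log2 difference -1.99 ± 0.40, adjusted p = 0.0147). Sp5 likewise stood at 10.9 and 12.0 CPM at 5 h but only 15.7 and 15.6 CPM at 24 h, below WT (log2 difference -1.59 ± 0.30, adjusted p = 0.0112). Of the p53 targets, Plk2 stood at 89.5 and 96.0 CPM and 89.1 and 89.6 CPM in the mutant (log2 difference -1.66 ± 0.15, adjusted p = 3.88e-06), and Mdm2 and Pmaip1 were called in the same direction. Nanog went from 166 and 158 CPM to 322 and 292 CPM, a log2 difference of 1.15 ± 0.17, adjusted p = 0.00136, and the germ cell factor Prdm14 differed by 1.79. T was at 2.14 and 4.12 CPM and 40.0 and 37.6 CPM, with a log2 difference of -1.90 ± 0.50 that did not pass (adjusted p = 0.0614). With 1 of the 8 libraries left out, Plk2 and Nanog kept their call in every fit. Lef1 lost it in 7, Sp5 in 6, Mdm2 in 4, Pmaip1 in 3, and Prdm14 in 8 (adjusted p up to 0.083, 0.0703, 0.0321, 0.0479, and 0.156). For Mdm2 and Pmaip1 it was lost by the 2-fold limit.

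By size, the large positive differences included those of Eno1b, which had 0 counts in both 5 h libraries of the mutant, the calcium-binding protein S100a13, the calponin Cnn2, and the adaptor She. Cnn2 fell in WT from 32.9 and 33.3 CPM to 10.1 and 8.10 CPM and stood at 18.2 and 19.8 CPM and 23.2 and 29.5 CPM in the mutant (log2 difference 2.34 ± 0.23, adjusted p = 1.25e-05). Eno1b stood at 1002 and 1029 CPM in WT and at most 1.33 CPM in the mutant, but it is a near copy of Eno1 and reads may be divided between them in the counting, so its value is uncertain. The largest negative differences were those of Pdzd2, Fam171b, Ttc39a, Usp29, and the ephrin receptor Epha1, at -2.58 to -2.45. Epha1 rose in WT from 2.89 and 3.34 CPM to 16.8 and 13.2 CPM, and in the mutant it was above both WT levels at 28.4 and 27.4 CPM and 23.0 and 26.0 CPM. Cnn2, She, Pdzd2, Ttc39a, and Epha1 kept their call whichever of the 8 libraries was left out. S100a13 and Usp29 lost it in 8 of these fits, Eno1b in 7, and Fam171b in 6 (adjusted p up to 0.207).

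Jarid2 RNA was not low in the cells labelled Jarid2 null. It stood at 622 and 609 CPM at 5 h and 189 and 219.6 CPM at 24 h against 639 and 661 CPM and 318 and 337 CPM in WT, so the RNA level gives no check of the label. The test of the difference, which again shares the WT libraries, called 329 of 18361 genes (1.79%), 132 larger (0.719%) and 197 smaller (1.07%), and 302 of them lay outside the WT calls. With RLE scaling the split was 156 to 148 and with library totals 167 to 150. The count rests on the 24 h libraries labelled Jarid2 null, since 16 genes were called without the first of them and 604 without the second, and 79 to 147 without any 1 of the other 6 libraries. The 2 libraries differed in stress genes, with Hspa1a at 32.8 and 8.32 CPM and Jun at 54.0 and 27.6 CPM, and the part of this in the count was not tested. Hspa1a, a heat shock gene, had the largest positive difference (4.09). Of 18 immediate early genes, 8 were called larger and 1 smaller, against 0.719% and 1.07% of all tested genes. Egr1 stood at 0.834 and 1.50 CPM and 29.1 and 21.1 CPM in these libraries against 1.99 and 1.78 CPM and 3.98 and 4.23 CPM in WT (log2 difference 3.30 ± 0.53, adjusted p = 0.00369). Fos, Hspa1b, and Ubap1l differed by 3.13, 2.96, and 2.82. The Nodal inhibitors went the other way. Lefty2, which rose in WT, stood at 74.4 and 68.5 CPM at 5 h and 66.0 and 125 CPM at 24 h (log2 difference -2.08 ± 0.31, adjusted p = 0.00272), and Lefty1 went from 25.3 and 22.7 CPM to 2.27 and 8.14 CPM (log2 difference -3.15 ± 0.44, adjusted p = 0.00243). The homeobox gene Nkx1-2 rose in WT from 1.90 and 2.40 CPM to 10.6 and 9.04 CPM and stood at 0.68 and 1.59 CPM at 24 h (log2 difference -2.37 ± 0.59, adjusted p = 0.0336). Tmem254c and Crip1 differed by -2.88 and -2.67, and AL731706.1 had 0 counts in both 24 h libraries. The formative genes Otx2, Foxd3, and Tcf15 were called smaller, and the LIF and STAT3 targets Socs3, Stat3, Pim1, and Junb were called larger. Egr1, Lefty1, Lefty2, and Pim1 kept their call whichever of the 8 libraries was left out. Otx2 and Socs3 lost it without the first 24 h library labelled Jarid2 null (adjusted p = 0.074 and 0.0585), and the other genes named here lost it in 2 to 8 of the fits (adjusted p up to 0.242).

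**Figure D5:**
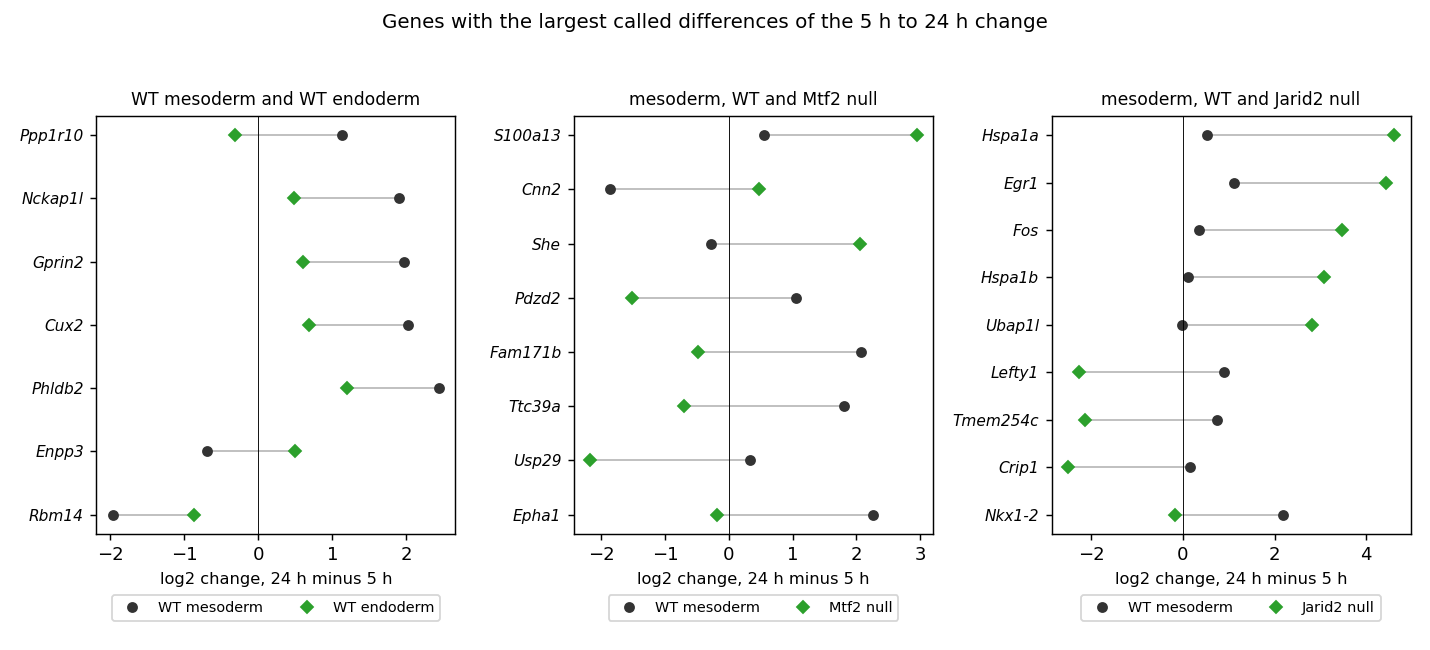
The log2 change (24 h minus 5 h) of the genes with the largest called differences, black circles for WT mesoderm and green diamonds for WT endoderm (left), Mtf2 null (middle), and mesoderm labelled Jarid2 null (right), without Eno1b and AL731706.1, which were at 0 in both libraries of a group. Ppp1r10 lies at 1.13 in WT mesoderm and -0.32 in WT endoderm, and Lefty1 at 0.89 in WT and -2.26 in cells labelled Jarid2 null.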

How the data were processed

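Bulk RNA was sequenced by the authors as 75-base paired reads after depletion of ribosomal RNA. The deposited values are estimated counts per gene that the authors made with Salmon against GRCm38 (mm10), without normalization, and 74.9% (mesoderm series) and 73.1% (endoderm series) of them were whole numbers within 1e-06. The submitters' processing notes also name CASAVA, Bowtie2, HTSeq, and DESeq2. The counts were rounded and fitted with edgeR 4.0.16 in R 4.3.3 (TMM scaling, filterByExpr at min.count 10 and min.total.count 15, quasi-likelihood F test, Benjamini-Hochberg adjustment). All 24 mesoderm libraries entered with 12 group means, and all 48 libraries for the endoderm comparison. Genes were called at an adjusted p under 0.001 and an absolute log2 fold change above 1, and differences between changes at an adjusted p under 0.05 and the same log2 limit. Each standard error (written after ±) was taken as the size of the log2 value over the square root of its F statistic. Library totals in the mesoderm series ran from 9112116 to 16898498.

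Genes were named as the 10 largest changes in each direction with at least 5 CPM in the higher group and separate libraries, the members of 29 gene lists (436 genes in the table, 361 tested), the 5 largest differences in each direction, and the 3 targeted genes. Some genes that met these rules are not reported here. Predicted genes were left out, and of symbols with 2 identifiers (Aldoa and Ddit3) the one with more counts was used. Hspa1a, Jun, and other genes given beside a result were listed genes or met this rule. The comparison, the lists, and the rule were chosen with earlier results of these data known. Same-numbered libraries deviated together with r = 0.07 (5 h and 24 h, WT), so the numbers were not taken as pairs. Alternatives were DESeq2 1.42.0, RLE scaling, library totals alone, no filter on low counts, removal of mitochondrial and ribosomal genes, no rounding, a replicate block, fits of fewer libraries, another p limit, and each library left out. Removal of Gm26917 and 7S-type genes was chosen after the data were seen. The scripts were tested on simulated data. Promoters were read from RefSeq sequences with Python 3.11.15.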

Additional observations from a re-analysis of the deposited data

Results flagged for a closer look

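The values below were singled out because the 5 h to 24 h change of the gene in WT mesoderm differed from its change in another group by the edgeR test of the difference itself, and each is that difference on the log2 scale. No group has the 4 or more libraries that a search for single outlying libraries needs. In WT mesoderm minus WT endoderm, the genes were Ppp1r10 (1.44), Nckap1l (1.42), Gprin2 (1.37), Cux2 (1.34), Phldb2 (1.25), Enpp3 (-1.19), and Rbm14 (-1.10).

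In Mtf2 null minus WT mesoderm they were Eno1b (6.65), S100a13 (2.39), Cnn2 (2.34), and She (2.34) on the positive side and Pdzd2 (-2.58), Fam171b (-2.56), Ttc39a (-2.51), Usp29 (-2.50), and Epha1 (-2.45) on the negative side. Eno1b had 0 counts in both 5 h libraries of the mutant, so its fitted value depends on the prior count and is no bound. In mesoderm labelled Jarid2 null minus WT mesoderm they were Hspa1a (4.09), Egr1 (3.30), Fos (3.13), Hspa1b (2.96), and Ubap1l (2.82) on the positive side and AL731706.1 (-9.58), Lefty1 (-3.15), Tmem254c (-2.88), Crip1 (-2.67), and Nkx1-2 (-2.37) on the negative side. AL731706.1 had 0 counts in both 24 h libraries labelled Jarid2 null, and the same limit holds. Hspa1a stood at 32.8 and 8.32 CPM and Hspa1b at 66.7 and 18.0 CPM in those 2 libraries. With any 1 library left out, the lowest difference was 2.77 for Hspa1a and 1.72 for Hspa1b.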

How the results depend on the processing

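The comparison of WT mesoderm at 24 h with 5 h called 810 genes, and between 623 and 1062 with DESeq2 (757), RLE scaling (776), library totals (907), no filter on low counts (1062), the 4 libraries alone (623), or the other changes of processing. It called 1607 at an adjusted p under 0.05, 415 in a fit of the 8 WT libraries, and 410 to 502 with 1 library left out. Library totals moved the median of all genes from 0.03 to 0.13. The direction of 82 genes was followed through the alternatives in this comparison, and 0 of them changed it. Many were chosen because they were called in these same libraries, which makes a reversal unlikely. Of 1144 pairs of gene and alternative, the call was lost in 86 and gained in 8. For the differences 8 (endoderm), 18 (Mtf2 null), and 19 (labelled Jarid2 null) genes were followed, also with 0 changed. In the same order, their call was lost in 40 of 136, 71 of 288, and 89 of 304 pairs. It was gained in 0, 2, and 0. The other genes named above were not followed in this way. With the replicate number as a block (replicate block) 790 genes were called, 780 of them shared with the 810, and the differences gave 14 (endoderm), 139 (Mtf2 null), and 300 (labelled Jarid2 null) in place of 14, 153, and 329. Since the numbers are not known to pair cultures, no call lost under the block is read as a weaker effect.

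The difference between mesoderm and endoderm gave 8 genes with DESeq2 (4 in each direction), 7 with RLE scaling (4 and 3), 106 without the filter, 1 in a fit of the 16 WT libraries, 1 at an adjusted p under 0.001, 11 without Gm26917 and 7S-type genes (8 and 3), and 3 to 9 with 1 library left out. That with Mtf2 null cells gave 374 without the filter, 15 at an adjusted p under 0.001, and 53 to 90 with 1 library left out. That with cells labelled Jarid2 null gave 539 without the filter, 3 at an adjusted p under 0.001, and 16 to 604 with 1 library left out. The cause was not tested, beyond that no filter adds low-count genes and a left-out library leaves fewer samples. Among lists, calls of epithelial and mesenchymal genes ran from 0 (without the first 5 h library) to 2 with 1 library left out, in place of 3. With 2 technical libraries a time and no separate cultures, no interval here covers the spread between cultures.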
